A study of Rattus norvegicus with 7 samples.

Results

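The miRNAs described here are the products of the miR-199a and miR-214 hairpins: rno-miR-199a-5p and rno-miR-199a-3p, the 2 arms of one hairpin, and rno-miR-214-3p, the main arm of its neighbour. They were found by name on the array and make up 3 of its 719 miRNAs, with 6 of its 1730 probes. All 3 were detected on all 7 arrays and were among the 181 miRNAs tested, so no filter on low signal removed a member. In mammals these hairpins are cut from a long non-coding RNA, Dnm3os, which is transcribed in the opposite direction within an intron of the dynamin 3 gene and is switched on by the transcription factor Twist1. miR-214-3p is known to lower the Polycomb methyltransferase Ezh2 and to favour differentiation in mouse skeletal myoblasts, while miR-199a-3p acts on the IGF-1, AKT and mTOR pathway in mouse myogenic cells. miR-199a-5p is known as a regulator of caveolin-1 in fibroblasts and of HIF-1 alpha in heart muscle cells. All 3 are also abundant in fibroblasts and other mesenchymal cells.

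The study asked how interleukin-6 (IL-6), a signalling protein secreted by working muscle among other tissues, alters the miRNAs of rat primary skeletal muscle cells (RSkMC). These are cells from limb muscle of newborn rats, bought frozen at an early passage, grown in serum and moved to horse serum to differentiate. The control group held 3 samples of untreated cells and the IL-6 group 4 samples of cells kept with recombinant IL-6 at 1 ng/ml, all taken on day 11 of differentiation; no sample carried a genetic change, and 1 array was run per sample. The titles and the study design give the groups, while the growth text attached to the control samples also names IL-6. Nothing in the labels says that samples of a group came from separate animals or cultures, so p-values measure the spread between these samples, which may be technical.

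Differentiated muscle is marked by a small set of muscle-specific miRNAs (the miR-1, miR-133, miR-206, miR-208 and miR-499 families), and 7 of 7 were detected on 0 arrays. Their summed scaled intensity was 4.99 to 9.62 in the control samples and 3.97 to 11.99 with IL-6, below the floor of 15.7 used for single probes. By contrast 3 of the 4 markers of smooth muscle and fibroblasts (both arms of miR-143 and miR-145) were detected on all arrays. Their summed level was 13155 to 13661 in the controls and 10855 to 13208 with IL-6, and the part of this in the results below was not tested. Most of the summed signal was that of miR-143-3p, with a control mean of 13.6 on the log2 scale. The means were 9.41 for miR-145-5p and 6.44 for miR-143-5p. The log2 differences, IL-6 minus control, were -0.13, -0.08 and 0.05 in this order. Endothelial and epithelial markers, 2 and 6 miRNAs, were detected on 0 arrays, as were 5 of 6 blood cell markers, while 2 of 6 neural markers were detected on all arrays at low signal. Each sample is a bulk of cells, in which fewer cells of a type and less of a miRNA per cell cannot be told apart.

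The mature sequences, from RefSeq with the GRCr8 build, are shown because the seed, bases 2 to 8 from the 5′ end, sets which messenger RNAs a miRNA pairs with. All 3 members were matched by name, and capitals mark the seed.
rno-miR-199a-5p: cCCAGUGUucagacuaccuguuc
rno-miR-199a-3p: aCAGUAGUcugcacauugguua
rno-miR-214-3p: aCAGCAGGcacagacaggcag
The 3 seeds differ, so the members form 3 seed families although they are described as sharing a transcript. The seeds of miR-199a-3p and miR-214-3p were identical at 5 of 7 positions, those of the miR-199a arms at 3 of 7, and those of miR-199a-5p and miR-214-3p at 2 of 7. Among the other rat miRNAs of the same RefSeq table, 0 shared a seed with any member.

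Each member was read by 2 probes, which are shown because they decide what the array can tell apart. The number after each name is the length of the probe.
miR-199a-5p, 19 bases: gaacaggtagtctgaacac
miR-199a-5p, 18 bases: gaacaggtagtctgaaca
miR-199a-3p, 20 bases: taaccaatgtgcagactact
miR-199a-3p, 19 bases: taaccaatgtgcagactac
miR-214-3p, 15 bases: ctgcctgtctgtgcc
miR-214-3p, 14 bases: ctgcctgtctgtgc
Every probe was the exact complement of the 3′ part of its mature miRNA, and the shorter probe of a pair lacked 1 base at its 3′ end. The miR-199a-5p probes began at base 5 or 6 of the mature miRNA, the miR-199a-3p probes at base 3 or 4, and the miR-214-3p probes at base 7 or 8. The seed is therefore only partly covered, by 1 base for the 14-base miR-214-3p probe and by up to 6 bases for the 20-base miR-199a-3p probe. Against 692 other rat mature sequences in the table, 0 lay within 2 mismatches of any of the 6 probes. The nearest was miR-185-5p, 3 mismatches from the 14-base miR-214-3p probe, while the miR-199a probes were at least 6 mismatches from every other sequence. In human and mouse miR-199b-3p has the same mature sequence as miR-199a-3p and a probe cannot separate them. No miRNA named miR-199b was on this array, so it was not analysed here. Per the file headers the array's positions refer to the rn4 build, in which the miR-214-3p probes are placed on chromosome 13 at 77916262 to 77916275 and at 77916263 to 77916275, as the files give them. The miR-199a probes are marked as unmapped in the files.

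The miR-214 hairpin is shown next because other mature miRNAs of the same locus come from it or from its opposite strand. In the RefSeq sequence of the hairpin, 108 bases on chromosome 13, capitals mark the 5p and then the 3p miRNA as annotated there.
Mir214 hairpin: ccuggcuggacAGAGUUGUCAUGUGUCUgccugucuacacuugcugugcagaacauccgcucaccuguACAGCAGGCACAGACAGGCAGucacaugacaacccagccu
The reverse complement of miR-3120, a miRNA made from the other strand, lies at bases 28 to 48 of this hairpin and shares 1 base with the 5p arm. The dynamin 3 gene (Dnm3) spans both hairpins in the RefSeq annotation, and Mir3120 is the other gene annotated between their outer ends. Dnm3os was not among the genes annotated there, so the shared transcript is taken from what is known in mammals.

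The signal of miR-214-5p, as annotated, and of antisense miR-3120 stayed at background in every sample. Both were detected on 0 of 7 arrays, and 0 of their spots were well above background. Unscaled intensities of the miR-214-5p probes ran from -2.46 to 1.36 and those of the miR-3120 probes from -6.49 to -2.25, where the lowest probe signal above background was 12.9. Of the miRNAs annotated at the locus, both arms of miR-199a and miR-214-3p thus gave a signal above background. Whether the miR-199a signal came from this locus alone cannot be told from mature miRNAs. No such signal was seen for the annotated miR-214-5p. Its probes match the 17 bases annotated under that name. Whether another stretch on that side of the hairpin gave a miRNA was not tested. miR-3120 was added to the locus after the files had been read.

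All 3 members gave strong and even signals. Over the 6 probes, 406 of 420 spots were used and 14 were left out as outliers, and 406 of the 406 used were well above background. Unscaled probe intensities, the means of up to 10 spots, ran from 642 to 6200. The coefficient of variation among spots of a probe was 2.13% to 9.38%, which gave a standard error of 0.01 to 0.04 on the log2 scale for a probe on 1 array. Differences between arrays below this size lie within the spot noise. Signals of different probes depend on how each binds and are not set against each other.

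Scaled intensities are probe means after the 75th percentile of the arrays was made equal. For miR-199a-5p, the caveolin-1 regulator, the brighter probe (19 bases) read 3644, 3678 and 4154 in control replicates 1 to 3. In IL-6 replicates 1 to 4 it read 3721, 3509, 3916 and 3915. The group means were 3825 ± 285 (SD, n = 3) and 3765 ± 194 (SD, n = 4). Control replicate 3 was the highest of all arrays and IL-6 replicate 2 the lowest, and the groups overlapped. The log2 difference, IL-6 minus control, was -0.02 ± 0.06 (SE), or -1.48% with a 95% interval of -11.5% to 9.67% (limma, adjusted p = 0.894).

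miR-199a-3p, the arm that acts on IGF-1 and mTOR signalling in mouse cells, read 4862, 4901 and 5558 in control replicates 1 to 3 with its 20-base probe. In IL-6 replicates 1 to 4 it read 4451, 4956, 5196 and 5205. The means were 5107 ± 391 (SD, n = 3) and 4952 ± 353 (SD, n = 4). Control replicate 3 was again the highest array, IL-6 replicate 1 was the lowest, and the other IL-6 values fell inside the control range. The log2 difference was -0.04 ± 0.08 (SE), or -3.03% with an interval of -14.7% to 10.2% (limma, adjusted p = 0.791). Without IL-6 replicate 1 it was 0.0059, and without control replicate 3 it was 0.02.

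miR-214-3p, the regulator of Ezh2, read 1792, 1704 and 1820 in control replicates 1 to 3 with its 15-base probe. In IL-6 replicates 1 to 4 it read 1868, 1696, 1840 and 1853. The means were 1772 ± 60.7 (SD, n = 3) and 1814 ± 79.6 (SD, n = 4). IL-6 replicates 1, 3 and 4 lay above all controls while IL-6 replicate 2 lay below them, so that the groups overlapped through 1 array. The log2 difference was 0.03 ± 0.04 (SE), or 2.35% with an interval of -5.0% to 10.3% (limma, adjusted p = 0.755). Without IL-6 replicate 2 it was 0.07, with an adjusted p of 0.325 by limma.

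**Figure D1:**
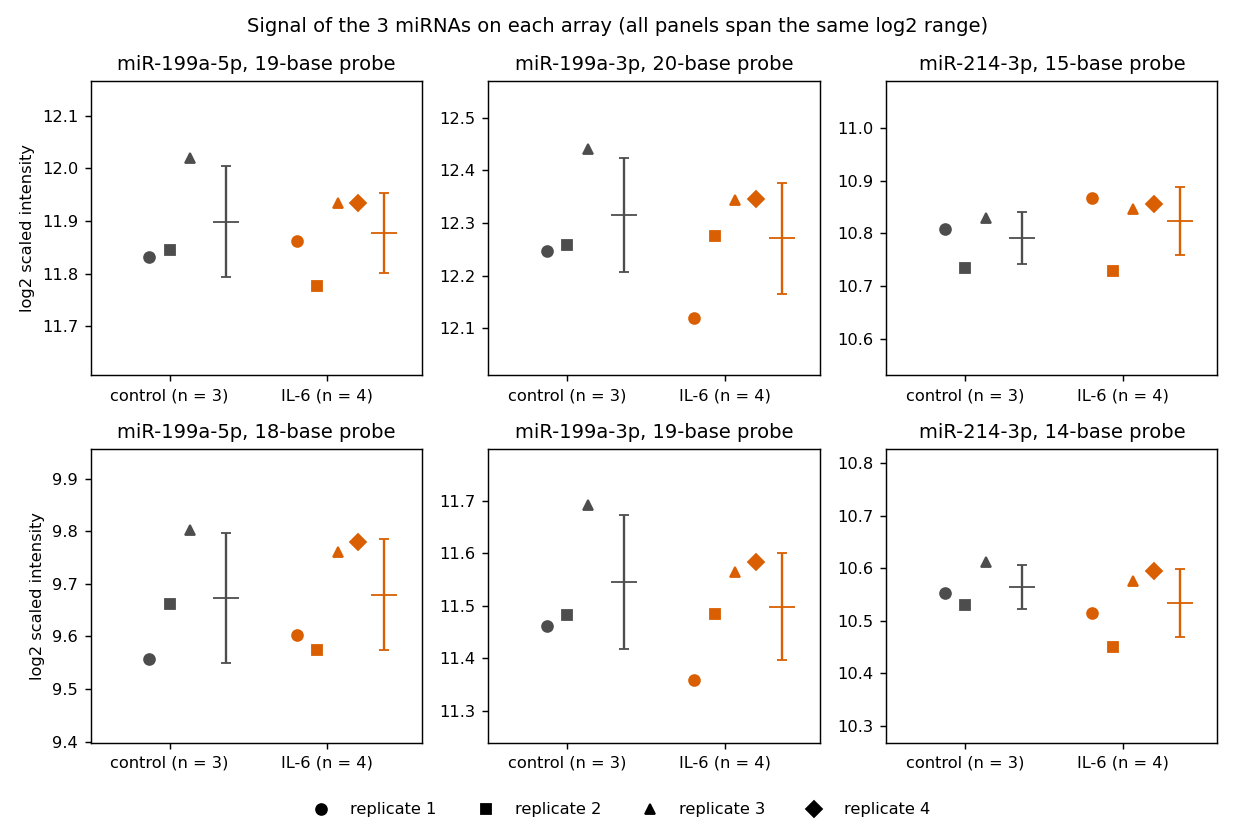
Log2 scaled intensity of each array (symbols by replicate number) for both probes of the 3 miRNAs, control in grey and IL-6 in orange, with the group mean and SD at the side. The groups overlap in all 6 panels, and control replicate 3 is the highest array in all 4 panels of miR-199a.

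The groups overlapped with the second probe of each member too, and the sign of the difference turned for miR-199a-5p and miR-214-3p. The dimmer probe of miR-199a-5p (18 bases) ran from 753 to 893 in the controls and from 762 to 879 with IL-6, a log2 difference of 0.0053 ± 0.08 (SE). The dimmer probe of miR-199a-3p (19 bases) ran from 2821 to 3309 and from 2627 to 3068, a difference of -0.05 ± 0.08 (SE). Both miR-199a-3p probes were lowest in IL-6 replicate 1 and highest in control replicate 3. For the 14-base probe of miR-214-3p the ranges were 1478 to 1564 and 1399 to 1546, and the difference was -0.03 ± 0.06 (SE), against 0.03 for the 15-base probe. The 2 probes of miR-199a-5p and those of miR-214-3p thus disagreed in direction, each difference being smaller than its SE.

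The test therefore called 0 of 3 members at an adjusted p under 0.05, and 0 of 3 had an unadjusted p under 0.05. Over all 181 tested miRNAs it called 17, or 9.39%, and 0 of 3 lies near that share. On the level of probes 0 of 6 were called, where 7.46% of the 268 tested probes were. Groups that did not overlap were seen for 0 of 3 members and for 22.1% of all tested miRNAs. The exact permutation test over the 35 ways of dividing the samples, whose smallest possible two-sided p is 0.0286, gave p = 0.771 for miR-199a-5p, p = 0.629 for miR-199a-3p and p = 0.457 for miR-214-3p. The background itself depends on which array is left out. The count of 17 became 0 without control replicate 1, 2 without control replicate 2, 5 without IL-6 replicate 3 and 6 without IL-6 replicate 4. It changed less without control replicate 3 (13), IL-6 replicate 1 (17) or IL-6 replicate 2 (15). At an unadjusted p under 0.05, 35 miRNAs were left without control replicate 1, against 49 with all arrays.

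The members lay near the centre of the tested miRNAs but not at its very middle. The median log2 difference of all 181 was 0.02 and the median of its size was 0.09. A smaller change in size than that of the member was seen in 32 of 181 miRNAs for miR-199a-5p, in 53 for miR-199a-3p and in 41 for miR-214-3p. Their SEs of 0.06, 0.08 and 0.04 stood beside a median of 0.07 over all tested miRNAs. With these errors the intervals still allowed a fall of up to 11.5%, 14.7% and 5.0% and a rise of up to 9.67%, 10.2% and 10.3%, so small changes were not detectable with 7 arrays.

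**Figure D2:**
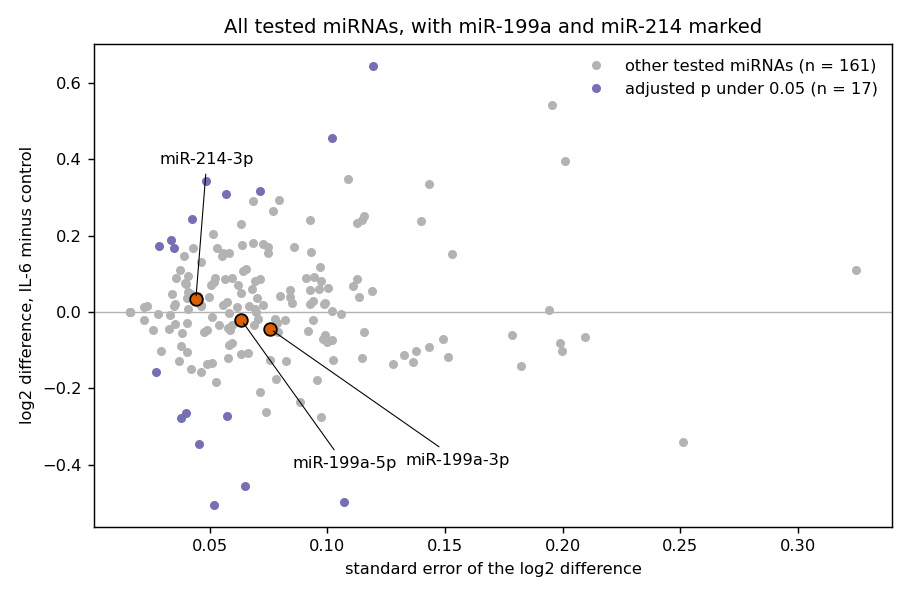
Log2 difference, IL-6 minus control, of each of the 181 tested miRNAs against its standard error, with the 17 of adjusted p under 0.05 in purple and the members in orange. miR-199a-5p (-0.02), miR-199a-3p (-0.04) and miR-214-3p (0.03) lie close to 0 among the uncalled miRNAs.

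Because the differences were near 0, their signs followed the scaling of the arrays. Without scaling the log2 differences were 0.16 for miR-199a-5p, 0.13 for miR-199a-3p and 0.21 for miR-214-3p, but the median of all tested miRNAs was then 0.17. With spike-in scaling they were 0.16, 0.14 and 0.22 beside a median of 0.18, and the unadjusted p of miR-214-3p was 0.0269 (limma, adjusted p = 0.151). With the 75th percentile over all probes they were -0.16, -0.19 and -0.11 beside a median of -0.12. Relative to the median of all miRNAs, miR-199a-5p lay at -0.02, -0.02 and -0.04 in these 3 settings and miR-199a-3p at -0.04, -0.04 and -0.07. miR-214-3p lay at 0.04, 0.04 and 0.01. These settings shift the miRNAs of an array alike, which fixes the gaps between the members. Quantile normalization does not, and it gave 0.03, 0.00 and 0.01 beside a median of -0.01, with miR-199a-5p the highest. It gives equal values to probes of equal rank, and the SE of miR-199a-3p was then 0.0075, against 0.08 in the main setting. The 0.00 of miR-199a-3p is therefore not read as a measured lack of change.

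**Figure D3:**
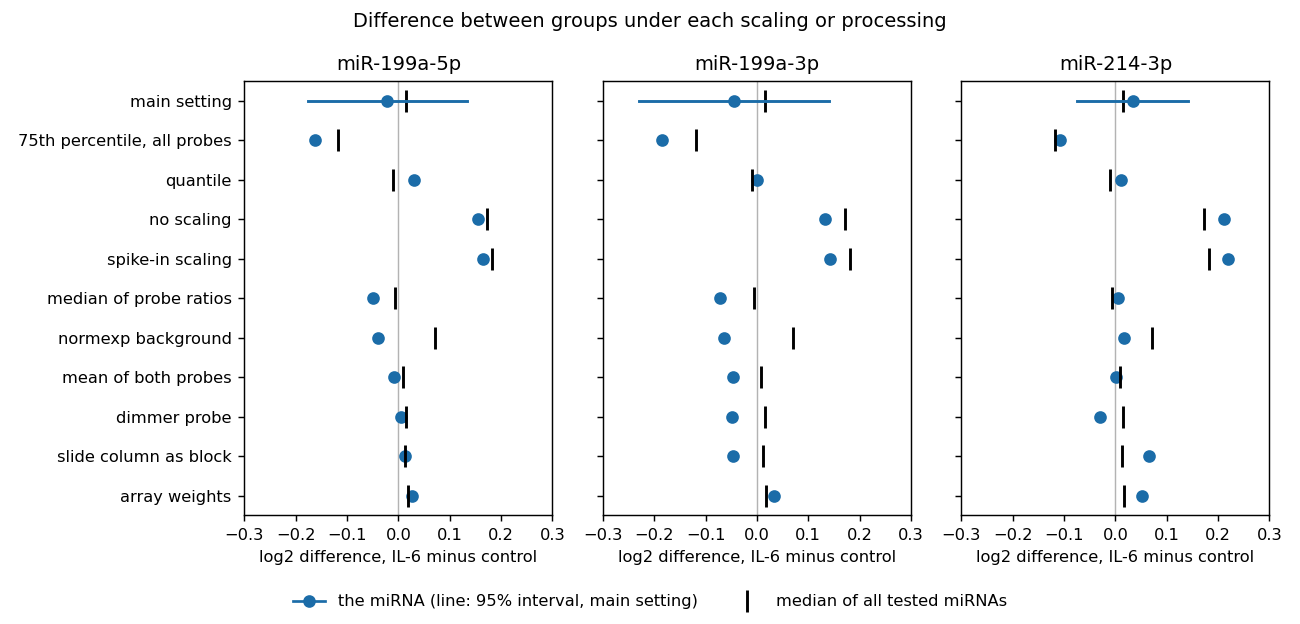
Log2 difference, IL-6 minus control, of each member (blue points) under the main setting and 10 alternatives, with the median of all tested miRNAs as a black bar and the 95% interval of the main setting as a line. Without scaling, with spike-in scaling and with the all-probe percentile each member shifts with the median, from -0.16 to 0.16 for miR-199a-5p. With quantile normalization miR-199a-5p rises as the median falls, and miR-199a-3p lies at 0.00, a value that method can give to a probe of unchanged rank.

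Before scaling the members varied far more between arrays. Unscaled, the brightest array exceeded the dimmest 1.41-fold for miR-199a-5p, 1.58-fold for miR-199a-3p and 1.39-fold for miR-214-3p. After scaling these ranges were 1.18-fold, 1.25-fold and 1.101-fold. Over the 7 arrays the SD of the log2 values fell from 0.20 to 0.08, from 0.25 to 0.10 and from 0.17 to 0.06. The scaling intensity itself, the 75th percentile, was 419 to 492 on the control arrays and 434 to 615 on the IL-6 arrays, highest on IL-6 replicate 2.

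The ratio of the miR-199a arms within an array does not depend on the scaling and shows whether their signals moved apart. The array reads mature miRNAs and does not tell which hairpin or transcript they came from. The ratio of miR-199a-5p to miR-199a-3p signal was 0.749, 0.751 and 0.747 in control replicates 1 to 3. It was 0.836, 0.708, 0.754 and 0.752 in IL-6 replicates 1 to 4. The control values were closer together, with a log2 SD of 0.0031, than the spot noise of 0.01 to 0.04, while the IL-6 arrays had a log2 SD of 0.10. IL-6 replicate 1 lay above and IL-6 replicate 2 below all controls, and the remaining IL-6 arrays lay just above them. The log2 ratio differed between groups by 0.02 (95% t interval -0.13 to 0.17). The exact permutation test gave p = 0.686 and an adjusted p of 0.686 over 3 pairs. The interval assumes an equal spread in both groups, which the SDs of 0.0031 and 0.10 do not show. Without IL-6 replicate 1 the difference was -0.02.

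With the other probes IL-6 replicate 1 was again the highest array, but less apart. With the dimmer probes of both arms its log2 ratio was 0.12 above the control mean, against 0.16 with the brighter ones. IL-6 replicate 2 was 0.04 below with the dimmer probes and 0.08 below with the brighter ones. IL-6 replicates 3 and 4 were both 0.07 above with the dimmer probes. The control arrays ran from -0.03 to 0.05 about their mean with these probes, so that 3 of the 4 IL-6 arrays lay above all controls and 1 below them. The group difference with the dimmer probes was 0.05 (exact permutation test, p = 0.286).

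The neighbouring hairpins are described as parts of one transcript in mammals, and the ratio of miR-214-3p to each miR-199a arm did not pass the test either. The ratio of miR-214-3p to miR-199a-5p was 0.492, 0.463 and 0.438 in control replicates 1 to 3. In IL-6 replicates 1 to 4 it was 0.502, 0.483, 0.470 and 0.473. The IL-6 arrays lay within or just above the control range, with IL-6 replicate 1 the highest and control replicate 3 the lowest. The log2 difference was 0.06 (95% interval -0.07 to 0.18; exact permutation test, p = 0.343, adjusted p = 0.686). With the dimmer probes it was -0.04.

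The ratio of miR-214-3p to miR-199a-3p was 0.369, 0.348 and 0.328 in control replicates 1 to 3. It was 0.420, 0.342, 0.354 and 0.356 in IL-6 replicates 1 to 4. IL-6 replicate 1 stood above the other arrays, and the remaining IL-6 values fell inside the control range. The log2 difference was 0.08 (95% interval -0.15 to 0.30; exact permutation test, p = 0.514, adjusted p = 0.686), and 0.01 without IL-6 replicate 1. A change of up to 1.23-fold in this ratio lies within the interval.

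**Figure D4:**
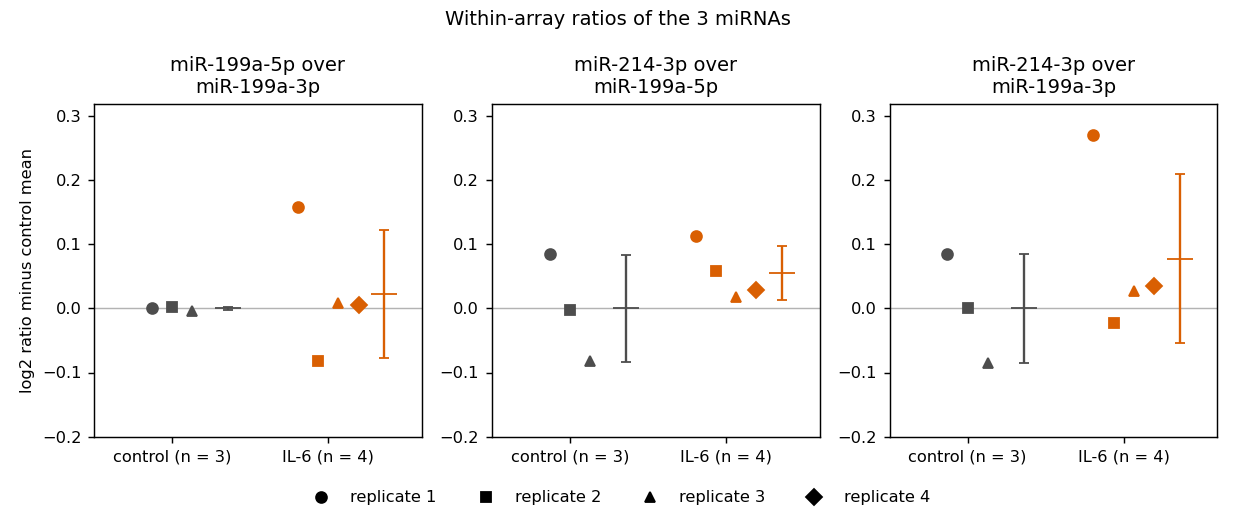
Within-array log2 ratios of the 3 pairs, as the difference from the control mean, for each array (symbols by replicate number) with group mean and SD. With the brighter probes drawn here the ratio of the miR-199a arms is nearly constant in the controls, while IL-6 replicate 1 lies 0.16 above and IL-6 replicate 2 lies 0.08 below the control mean. With the dimmer probes, not drawn, its log2 SD was 0.04 in the controls and 0.07 with IL-6.

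All arrays lay on 1 slide, with the controls in row 1 and the IL-6 samples in row 2, so row and treatment cannot be told apart. Within the slide columns that held both groups, columns 1, 3 and 4, IL-6 minus control was 0.03, 0.09 and -0.09 for miR-199a-5p. For miR-199a-3p it was -0.13, 0.08 and -0.09. For miR-214-3p it was 0.06, 0.11 and 0.03, above 0 in each of the 3 columns with the 15-base probe. With the 14-base probe IL-6 was below control in columns 1 and 4 and above it in column 3. With the column as a block the differences were 0.01, -0.05 and 0.07 in the order above (limma, adjusted p = 0.901, 0.668 and 0.249). The ratio of the miR-199a arms differed by 0.16 in column 1 and by 0.0061 and 0.0093 in columns 3 and 4. The ratio of miR-214-3p to miR-199a-5p differed by 0.03, 0.02 and 0.11 in columns 1, 3 and 4, and that of miR-214-3p to miR-199a-3p by 0.19, 0.03 and 0.12. With these brighter probes all 3 ratios were thus higher with IL-6 in each column that held both groups. On the log2 scale the last ratio is the sum of the other 2, so these signs are not independent. With the dimmer probes the ratio of miR-214-3p to miR-199a-5p was lower with IL-6 in columns 1 and 3. That of miR-214-3p to miR-199a-3p was lower in column 3, and the remaining comparisons were higher. IL-6 replicate 2, in column 2, had no control beside it. Deviations from the group means over all tested miRNAs correlated between the arrays of a column at 0.52 in column 1, 0.19 in column 3 and 0.13 in column 4. Between arrays of different columns they correlated at -0.44 to 0.29, so the values of columns 3 and 4 do not stand out.

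To describe which miRNAs varied most like the members, the SD of the log2 difference between a pair of miRNAs over the 7 arrays was taken for 151 miRNAs above background on all arrays; a small SD means that a pair kept its ratio. For miR-199a-5p the smallest were miR-130a-3p (0.05), miR-148b-3p (0.06) and miR-186-5p (0.06), against a median of 0.12. The sister arm miR-199a-3p ranked 12 and miR-214-3p ranked 8. For miR-199a-3p they were miR-148b-3p (0.03), miR-19b-3p (0.05) and miR-31a-3p (0.05), and miR-199a-5p ranked 20 while miR-214-3p ranked 60. For miR-214-3p they were miR-130a-3p (0.04), miR-324-5p (0.04) and miR-125a-5p (0.04), and the miR-199a arms ranked 11 and 66. The members were thus not each other's closest partners over these arrays. All these values share the arrays and their scaling, and the total spread is small.

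Other miRNAs with a role like that of the members gave 0 calls as well. Of the 5 miRNAs known to target Ezh2 (miR-214-3p and the miR-26 and miR-101 families), all were tested and 0 passed, with 0 at an unadjusted p under 0.05 by limma. Over all 181 tested miRNAs 9.39% passed and 49, or 27.1%, had an unadjusted p under 0.05, and with 5 members a count of 0 lies near the first share. All 5 log2 differences were above 0, as were 57.5% of those of all tested miRNAs, with a median of 0.07 against 0.02 over all. The largest was that of miR-101a-3p at 0.24 ± 0.14 (SE, adjusted p = 0.358 by limma), named after its value was seen.

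Of 12 miRNAs linked to fibrosis, which include the 3 members, the miR-29 and miR-21 families, miR-34a, miR-125b, miR-143 and miR-145, all were tested and 0 passed, with 2 at an unadjusted p under 0.05 by limma, beside the 9.39% and 27.1% of all tested miRNAs. Of the 12, 6 had a log2 difference above 0, against 57.5% of all, and the median was -0.00020, with a range of -0.18 to 0.35. The highest was miR-29b-3p, which targets collagen messenger RNAs, at 0.35 ± 0.11 (SE, adjusted p = 0.107 by limma), also named after its value was seen. The smooth muscle and fibroblast markers gave 0 calls among 3 tested, with 0 at an unadjusted p under 0.05, and a median of -0.08. Neural markers gave 0 calls among 2 tested, with 0 at an unadjusted p under 0.05 and a median of 0.0091. Lists of 3 and 2 are too short to set against the 9.39% called and the 27.1% at an unadjusted p under 0.05 over all tested miRNAs.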

How the data were processed

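Each of 7 samples of total RNA, carrying Cy3, was read on its own Agilent array of rat miRNAs, per the labels' protocols. Spot intensities in the deposited files are background-subtracted (processed signal) but not scaled between arrays, and per the file headers come from Feature Extraction 10.10.1.1. Control spots and outlier spots (2.88% to 3.84% of 14380) were left out; 0 were saturated. Spots of a probe were averaged. Arrays were brought to equal 75th percentiles, taken over 268 probes that all arrays showed above background, with a floor of 15.7, then log2. Each miRNA took its brightest probe. Of 719 miRNAs, the 181 detected throughout the control group, the IL-6 group or both were tested. The comparison used limma 3.58.1 (R 4.3.3), Benjamini-Hochberg adjustment over all 181 and a threshold of 0.05; within-array ratios were compared by exact permutation tests. The tests were checked on simulated data. Precision is limited by how many arrays there are.

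The members and lists were chosen with earlier results of these data known. The rule for names was the members and their probes, list members past the threshold (up to 3 a list), and the 3 miRNAs most like each member; the miRNAs of the locus were described as well. Probe positions use rn4, while sequences come from RefSeq (GRCr8). Alternatives covered scaling, background correction, probe choice, filter, weights, blocks and arrays left out.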

Additional observations from a re-analysis of the deposited data

Results flagged for a closer look

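In the 15-base probe of miR-214-3p, IL-6 replicate 2 stood apart from the other IL-6 arrays. Its log2 scaled intensity was 10.73, and its gap to the nearest array took a share of 0.848 of the group's range, above the level that Dixon's 95% criterion allows for 4 arrays. Of 9 quantities looked at in this way (6 probes and 3 ratios) this was 1, and chance flags about 1 in 20. The share was 0.441 in the 14-base probe, where IL-6 replicate 2 was the lowest as well.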

How the results depend on the processing

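Under 26 alternatives each, 0 of the 3 members passed the threshold, and under 16 alternatives each 0 of the 3 ratios did. Since the differences are near 0, signs turned. For miR-199a-5p the log2 difference was 0.030 with quantile normalization, 0.16 without scaling, 0.16 with spike-in scaling, 0.026 with array weights, 0.012 with the slide column as a block and 0.0053 with the dimmer probe, an alternative chosen after seeing the data. For miR-199a-3p it was 0.13 without scaling, 0.14 with spike-in scaling and 0.033 with array weights, while quantile normalization gave 0.00, which has no sign. For miR-214-3p it was -0.11 when scaled on the 75th percentile of all probes and -0.030 with the dimmer probe. Leaving out control replicate 3 and IL-6 replicate 1 together gave 0.044 for miR-199a-5p, 0.068 for miR-199a-3p, and ratio differences of -0.024 (miR-199a-5p over miR-199a-3p), -0.0055 (miR-214-3p over miR-199a-5p) and -0.030 (miR-214-3p over miR-199a-3p). With the dimmer probes the ratio of miR-214-3p to miR-199a-5p differed by -0.036. Leaving out 1 array at a time gave -0.055 to 0.039 for miR-199a-5p, -0.079 to 0.018 for miR-199a-3p, 0.0054 to 0.066 for miR-214-3p, and -0.022 to 0.058, 0.014 to 0.097 and 0.013 to 0.12 for the ratios in the same order. With a replicate block the members were at -0.041, -0.069 and 0.023 and the ratios at 0.029, 0.064 and 0.092. Same-numbered samples correlated at 0.52, -0.18 and 0.26, which cannot tell whether they share more than a number. The pair at 0.52 also shares slide column 1. The count of 17 called miRNAs (9 higher, 8 lower) became 7 higher and 11 lower with quantile normalization, 11 and 14 with the median of probe ratios, 4 with spike-in scaling, 5 with the total gene signal, 47 with array weights, 3 with the replicate block, 31 with the same 2 arrays left out and 6 with IL-6 replicates 3 and 4 averaged. It was 0 by limma with the all-probe percentile, without scaling, with normexp, without the detection filter and with the slide column as a block, where 1, 29, 7, 41 and 52 miRNAs had an unadjusted p under 0.05. Leaving out 1 array gave 0 to 17. With outlier spots kept it was 6 higher and 12 lower. The cause of these shifts was not tested.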
